A study of Mus musculus with 19 samples.

Results

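The 5 mouse embryonic stem cells (mESCs) lines of embryo 1, of 19 lines from 3 embryos, fell into group I (lines 1.1, 1.3 and 1.4) and group II (lines 1.2 and 1.5). The groups were chosen by the study from these same libraries, by a principal component analysis of all 19 lines after the differences between embryos had been corrected and by a gene correlation network, with 11 lines placed in group I and 8 in group II over the whole series. The values of embryo 1 were among those that set the groups, so the differences between groups I and II given here are a description and nothing is read from their calls. Both group II lines are therefore shown singly beside the 3 lines of group I.

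The mouse embryos came from B6CBAF1/J females mated with B6CBAF1/J males, and the paper describes embryos of such a cross as genetically distinct. The embryos were frozen at an earlier stage, thawed and grown to 8 cells. Blastomeres were then biopsied from them and cultured singly. Each line came from 1 of those that gave a line, and 1 poly-A library was made per line. Nothing was given to one group and not to the other. All lines shared a medium with serum replacement, leukemia inhibitory factor (LIF), the MEK inhibitor PD0325901 and the TGFβ inhibitor SB431542. Adrenocorticotropic hormone was also added to it in the first week of culture. The lines further shared a layer of HFF-1 cells, a line of human foreskin fibroblasts made unable to divide, which were removed before extraction. A line stands for 1 blastomere and its descendants, so the spread among lines holds that of the blastomere, the culture and the library together, and no line was sequenced more than once.

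Mouse ESCs can be held in a naive state, which LIF and the block of MEK signalling favour and which factors such as Esrrb, Klf4, Tfcp2l1 and Tbx3 sustain around the core factors Pou5f1 (OCT4), Sox2 and Nanog. On leaving it they pass through a formative state, marked by Otx2, Pou3f1, Fgf5 and the DNA methyltransferase Dnmt3b, towards the primed state of the later epiblast, from which neural progenitors can arise. Naive cultures also hold rare cells that transiently switch on genes of the 2-cell embryo, such as the Zscan4 family.

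Total counts in embryo 1 ranged from 36555470 to 46092184, and line 1.2 was the deepest. Genes with at least 1 count numbered 24176 in line 1.1 and between 25362 and 25725 in the other lines. None of the 10 pairs of libraries was identical (0 pairs). Levels are given as CPM, the measure of edgeR that sets the count of a gene against its library's total scaled with a TMM factor, and the values of lines 1.1, 1.3 and 1.4 are always given in that order. Pou5f1 stood at 1146, 875 and 995 CPM in group I, at 860 in line 1.2 and at 549 in line 1.5, and Sox2 between 339.5 and 407 in the 5 lines, so all 5 carried the defining markers of the label.

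A gene was taken as beyond group I in a line when its log2 CPM lay outside the range of the 3 group I lines and more than 1.5-fold from their mean. Of 18129 genes that passed the count filter, line 1.2 was above group I in 1446 (7.98%) and below it in 1265 (6.98%). Line 1.5 was above in 3722 (20.5%) and below in 2813 (15.5%). Both lines were above group I in 1116 genes (6.16%) and below it in 719 (3.97%). Without line 1.1 in group I, the genes below numbered 1904 in line 1.2 and 1151 in both lines. Line 1.5 shared 77.2% of the genes above group I in line 1.2, while line 1.2 shared 30.0% of those above it in line 1.5. The shares among the genes below were 56.8% and 25.6%. The lines lay on opposite sides of group I in 33 genes with line 1.2 above and in 94 with line 1.2 below.

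Among the genes above group I in both lines, the median log2 difference from group I was 1.00 in line 1.2 and 1.54 in line 1.5, and among those below it -0.90 and -1.24. The difference was larger in line 1.5 for 1342 of these 1835 genes. Among the 10800 genes whose mean reached 5 CPM, both lines were above group I in 2.80% and below it in 1.01%.

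**Figure D1:**
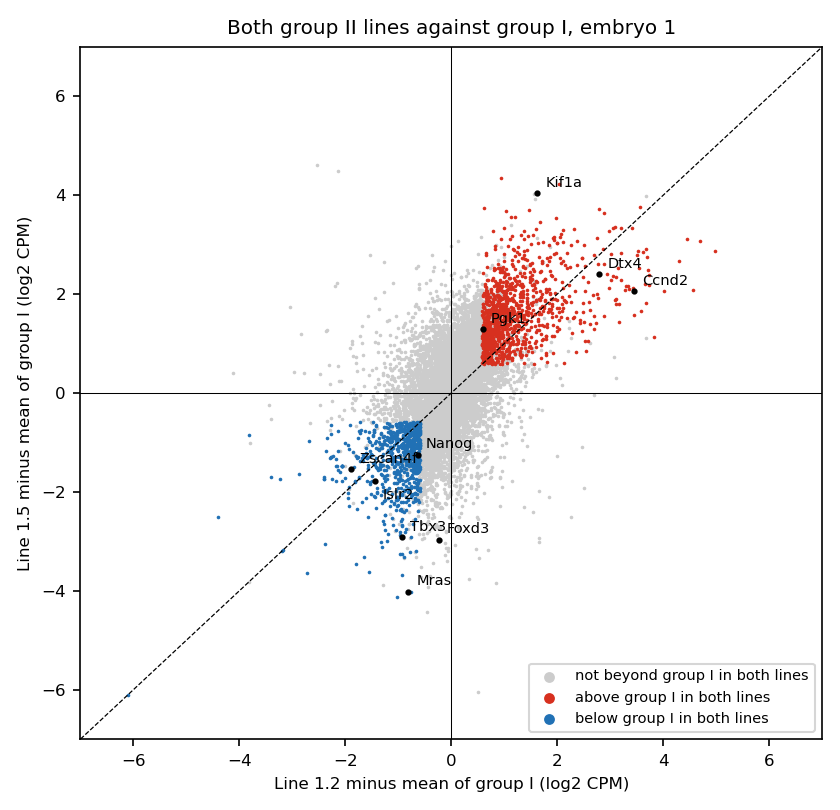
Log2 CPM of line 1.2 (horizontal) and of line 1.5 (vertical) minus the mean of the 3 group I lines, for the 18129 tested genes of embryo 1. Red points are the 1116 genes above group I in both lines, blue points the 719 below it in both, and the dashed line marks equal differences. Kif1a lies far above that line, Mras and Tbx3 far below it.

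Over the 13955 genes whose mean reached 1 CPM, the root mean square log2 difference from the mean of group I was 0.42 for line 1.2 and 0.73 for line 1.5. Measured against the other lines of its own group, line 1.1 lay at 0.56, line 1.3 at 0.38 and line 1.4 at 0.43. The distance of line 1.2 thus fell within the range of the group I lines and that of line 1.5 above it, although the mean is over 3 lines in the former case and over 2 in the latter. Line 1.2 was 0.46 from line 1.3, 0.53 from line 1.4 and 0.56 from line 1.1, against 0.55 from line 1.5. Line 1.5 was between 0.76 and 0.85 from each group I line. Its library has a name outside the consecutive run of the other 4, and what these names stand for is not given, so the part of a difference between library preparations in the distance of line 1.5 was not tested.

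With the quasi-likelihood test of edgeR, 1 gene (0.00552%) was called higher in group I and 0 (0%) lower, with thresholds of 0.05 for the adjusted p and 1.5 for the fold. DESeq2 called 105 higher and 455 lower, edgeR with the spread of all 19 lines called 140 and 598, and edgeR had 1000 and 1577 genes at an unadjusted p under 0.05. The single gene was Rpl7a-ps11, a processed pseudogene of a ribosomal protein gene (chromosome X, 165637207 to 165638007 in GRCm39). Its counts were 124, 125 and 123 in group I and 0 in both group II lines. Set against a floor of 3 counts per library, its mean level in group I was at least 49.85-fold higher, and that of the lowest group I line at least 48.04-fold. Reads of such a copy can be shared with other copies of the gene by the counting, so the values are uncertain.

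The other genes named were taken from the 10 protein coding genes in each direction with the largest log2 fold changes among those beyond group I in both lines, with a mean of at least 5 CPM. Those with higher levels in group I included Tbx3, a T-box factor of the naive network, at 138.5, 195 and 173 CPM against 87.8 in line 1.2 and 22.1 in line 1.5. Mras, a Ras-related GTPase, stood at 13.9, 29.5 and 15.4 CPM against 10.5 and 1.10. Tgm1, a transglutaminase, was at 11.3, 27.04 and 21.3 CPM against 9.06 and 2.69. In all 3 genes line 1.5 was the lower of the group II lines and line 1.2 lay nearer to the lowest group I line.

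Islr2, a neuronal membrane protein, stood at 11.4, 11.7 and 16.1 CPM against 4.70 and 3.74, and Derl3, which acts in the degradation of misfolded proteins of the endoplasmic reticulum, at 3.33, 6.64 and 10.97 against 2.29 and 2.17. The group II lines lay close to each other in these genes. Emp1, an epithelial membrane protein, stood at 6.59, 16.9 and 13.8 CPM against 6.36 and 1.68, and Sh3d21 at 5.29, 10.2 and 7.71 against 3.11 and 1.63. The remaining genes were Zscan4f, described below with its family, and Gm21312 and Gm20765, which had the same values in every line (6.57, 8.79 and 9.89 CPM against 1.53 and 2.46). These 2 genes cannot be told apart by their counts, and each value is uncertain.

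Kif1a, Gnao1 and Rgma had higher levels in both group II lines. Kif1a, a kinesin that carries synaptic vesicle precursors along axons, stood at 3.18, 4.14 and 7.14 CPM in group I, at 14.1 in line 1.2 and at 75.4 in line 1.5. Gnao1, a G protein subunit abundant in the brain, stood at 1.59, 2.20 and 1.97 CPM against 7.77 and 16.1. Rgma, a repulsive axon guidance protein and BMP co-receptor, stood at 1.27, 5.01 and 4.91 CPM against 13.3 and 28.5. Line 1.5 was the highest of the 5 lines in each of them and line 1.2 came next.

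Cxcl12, a chemokine that signals through CXCR4, stood at 5.90, 3.83 and 6.48 CPM in group I, at 14.8 in line 1.2 and at 69.7 in line 1.5. Greb1l stood at 5.12, 12.3 and 6.98 CPM against 30.2 and 88.3, Fndc3c1 at 1.59, 2.15 and 2.55 against 7.94 and 18.4, and Zfp608 at 1.24, 3.77 and 2.39 against 9.47 and 15.2. The order was turned in Ccnd2 and Dtx4. The cyclin Ccnd2, which drives entry into S phase, stood at 1.48, 5.61 and 2.65 CPM against 31.0 in line 1.2 and 11.9 in line 1.5, and Dtx4, a ubiquitin ligase of the Notch pathway, at 1.91, 2.77 and 1.86 against 15.2 and 11.6.

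The genes with the largest differences between lines 1.5 and 1.2 also included genes in which line 1.5 alone lay far from group I. Tdh, the threonine dehydrogenase on which mouse ESCs depend for threonine catabolism, stood at 299, 294 and 285 CPM in group I, at 216.5 in line 1.2 and at 19.2 in line 1.5. Foxd3, a forkhead factor of ESCs and the neural crest, was at 24.2, 36.8 and 31.7 CPM against 25.8 and 3.85. Line 1.2 lay inside the range of group I for Foxd3 and differed from its mean by -0.43 on the log2 scale for Tdh. Gm49388 stood at 8.59, 7.24 and 8.89 CPM against 6.21 and 0.582.

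In the other direction, Cacna1b, a neuronal calcium channel subunit, stood at 2.72, 6.36 and 5.85 CPM in group I, at 7.36 in line 1.2 and at 33.3 in line 1.5. Adm, the vasodilator peptide adrenomedullin, stood at 5.84, 9.33 and 21.3 CPM against 6.39 and 30.8, so that line 1.2 was within group I. The mitochondrial gene mt-Co3 stood at 124, 78.9 and 16.2 CPM against 170 and 13.7, and its order across the lines followed neither the groups nor the other mitochondrial genes.

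Naive pluripotency genes separated line 1.5 from the other 4 lines more than they separated the groups. Of the 20 naive genes, all tested, line 1.5 was below group I in 16 and above it in 1. Line 1.2 was below in 2 and above in 1. Over all tested genes line 1.5 was below group I in 15.5% and line 1.2 in 6.98%. Without line 1.1, 5 naive genes were below group I in both lines and 0 above, against 2 and 1 with it. The median log2 difference from group I was -1.08 in line 1.5 and -0.15 in line 1.2, against 0.01 and -0.01 over all tested genes. Without line 1.5 the median log2 fold change of group I over group II was 0.15, and without line 1.2 it was 1.09.

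Esrrb, an orphan nuclear receptor, stood at 568, 511 and 474 CPM in group I, at 436 in line 1.2 and at 228 in line 1.5. Klf4 was at 164, 245 and 234 CPM against 150 and 76.8, and Klf2 at 278, 344 and 481 against 326 and 187. Zfp42 (REX1), a common marker of the naive state, stood at 618, 525 and 509 CPM against 557 and 255, so line 1.2 lay within group I and line 1.5 below all lines. Prdm14, a repressor of differentiation genes, stood at 33.2, 27.8 and 29.8 CPM against 20.5 and 11.2. Tfcp2l1, a target of LIF signalling, stood at 240, 326 and 266 CPM against 165 and 98.7, and it was, with Tbx3, a naive gene below group I in both lines. Gbx2 was above group I in both, at 9.02, 15.2 and 10.8 CPM against 18.2 and 18.5.

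Of the 12 core genes, Nanog alone was below group I in both lines, and none was above it in both. Over all tested genes both lines were below group I in 3.97%, and line 1.5 in 15.5%. Nanog stood at 408, 589 and 594 CPM in group I, at 337 in line 1.2 and at 220 in line 1.5. Since line 1.1 lay well under lines 1.3 and 1.4, line 1.2 came close to it, and without line 1.3 or line 1.4 no core gene was below group I in both lines (0 genes). Line 1.5 was below group I in 3 further core genes, Pou5f1, Trim28 and Dppa2, and above it in Lin28a, an RNA-binding protein of early embryos, at 483 CPM against 266, 306 and 334. Trim28, a corepressor that silences retroelements, stood at 2385, 2378 and 2326 CPM against 1994 and 1281. Sall4, Gdf3, Sox2, Dppa4, Utf1, Fgf4 and Tdgf1 were beyond group I in neither line, with log2 differences between -0.28 and 0.06 in line 1.2 and between -0.53 and -0.15 in line 1.5.

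**Figure D2:**
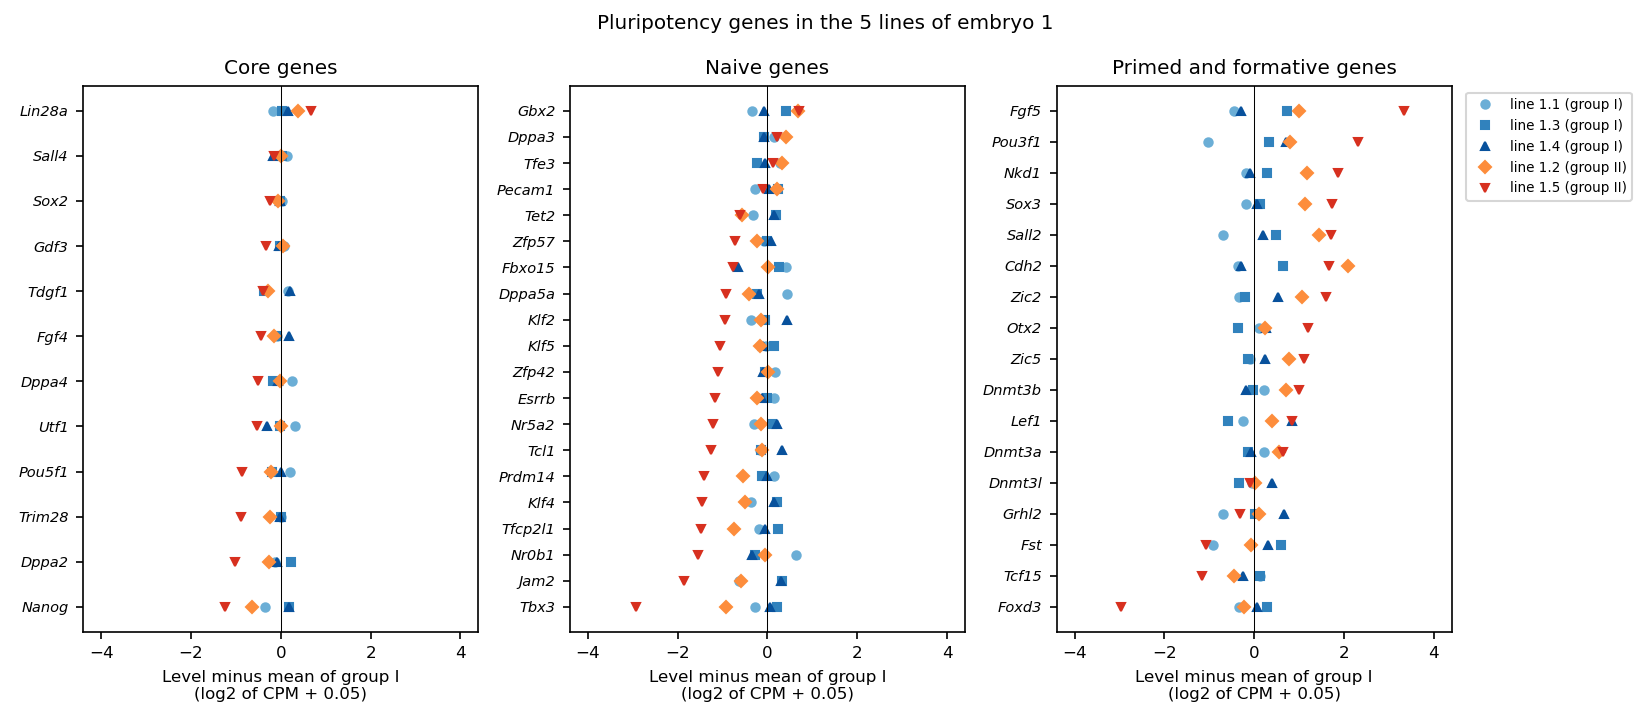
Level of each core, naive, and primed or formative gene in the 5 lines of embryo 1, as log2 of CPM plus 0.05 minus the mean of the 3 group I lines. Blue markers are group I lines, orange diamonds line 1.2 and red triangles line 1.5. The red triangles lie left of the other markers for 16 of 20 naive genes, while orange and red both lie right of the blue markers, by more than 1.5-fold from their mean, for 9 of the 17 primed and formative genes shown.

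Primed and formative genes were shared by the group II lines. Of 18 tested genes, 9 were above group I in both lines and 0 below in both, against 6.16% and 3.97% of all tested genes. Line 1.5 alone was above group I in 3 more and below it in 4. The median log2 difference from group I was 0.63 in line 1.2 and 1.06 in line 1.5. Dnmt3b, a de novo DNA methyltransferase, stood at 411, 345 and 311 CPM in group I, at 579 in line 1.2 and at 710 in line 1.5. Pou3f1 (OCT6), a POU factor of the formative state, stood at 10.1, 26.2 and 34 CPM against 36.1 and 104, with line 1.2 barely above line 1.4. Fgf5, a growth factor of the epiblast, was at 0.607, 1.42 and 0.682 CPM against 1.73 and 8.96.

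Zic2 and Zic5, zinc finger factors of the epiblast and neural plate, were at 24.3, 26.5 and 44.5 CPM against 64.1 and 93.1, and at 37.9, 36.8 and 48.0 against 69.7 and 88.3. The other genes above in both lines were Cdh2, Nkd1, Sall2 and Sox3. Otx2, which opens enhancers of the formative state, was above group I in line 1.5 alone, at 82.3, 59.5 and 92.5 CPM against 91.3 in line 1.2 and 177 in line 1.5. The 4 genes below group I in line 1.5 included Fst, Tcf15 and Foxd3, and line 1.2 was within 0.45 of the mean of group I on the log2 scale in each of these 3.

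Genes of neural progenitors and neurons stood higher in both group II lines, and here line 1.2 was as far out as line 1.5. Of 30 listed genes 28 were tested. Of these, 16 were above group I in both lines and 1, Olig2, below it in both, against 6.16% and 3.97% of all tested genes. The median log2 difference was 1.06 in line 1.2 and 0.89 in line 1.5. Pax6, a paired box factor of the neural tube and eye, stood at 12.5, 5.27 and 4.09 CPM in group I against 23.3 and 28.0. Sox1, an early marker of neuroectoderm, stood at 10.7, 10.3 and 8.19 CPM against 25.2 and 27.4, and Nes, the intermediate filament of neural progenitors, at 17.7, 20.8 and 27.1 against 48.2 and 67.4. In these 3 genes both lines lay clear of group I.

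Sox11, a SoxC factor of immature neurons, stood at 46.4, 49.8 and 58.5 CPM against 106 and 159. Dcx, a microtubule protein of migrating neurons, was at 0.289, 1.03 and 0.236 CPM against 4.14 and 2.69. Not all neuronal genes followed. Tubb3, a neuronal tubulin, stood at 57.4, 80.0 and 107 CPM against 81.1 in line 1.2 and 34.1 in line 1.5, and Stmn2 at 61.9, 176 and 252 against 183 and 93.4. Olig1 and Olig2, factors of the oligodendrocyte lineage, stood at 63.6, 30.1 and 31.9 CPM against 25.4 and 31.0, and at 37.5, 33.1 and 33.5 against 20.9 and 19.5.

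Genes of the 2-cell-like state differed in the opposite direction. Of 23 listed genes 16 were tested. Among them 12 were below group I in both lines and 0 above it in both, against 3.97% and 6.16% of all tested genes. The median log2 difference was -1.44 in line 1.2 and -1.24 in line 1.5. Zscan4f stood at 7.81, 19.1 and 11.4 CPM in group I, at 3.19 in line 1.2 and at 4.07 in line 1.5. Zscan4c was at 4.45, 9.80 and 7.61 CPM against 2.61 and 3.16, and Zscan4d at 3.33, 5.35 and 4.57 against 1.51 and 1.79. Line 1.3 was the highest and line 1.2 the lowest in each of the 3 genes.

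The Usp17l deubiquitinase copies and Tmem92 had the same order of groups, with Tmem92 at 1.39, 3.21 and 2.20 CPM against 0.712 and 0.560, whereas Eif1a stood at 213, 237 and 223 against 195.5 and 151 and was beyond group I in neither line. Members of the Zscan4 and Usp17l families are near copies of each other, so the counts of single members are uncertain. Fewer cells in this state and less of the RNA in each such cell cannot be told apart in these libraries. In the fit to all 19 lines the median log2 fold change of group I over group II for 19 tested genes of this list was 1.34 in embryo 1, -0.96 in embryo 2 and 0.68 in embryo 3. None of these genes was called in the test of the difference between embryos (0 of 19), and the difference of the list was not tested.

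Glycolysis and the other targets of HIF-1 were higher in line 1.5, with line 1.2 mostly inside or at the edge of group I. HIF-1 is a factor made of HIF-1α and ARNT that accumulates when oxygen is low, binds the core ACGTG and raises glycolytic enzymes. Of 24 genes of glycolysis and glucose uptake, line 1.5 was above group I in 16 and below it in 0, and line 1.2 was above in 2 and below in 0. Of 26 other HIF-1 targets, line 1.5 was above in 18 and below in 0, and line 1.2 above in 3 and below in 1. Over all tested genes line 1.5 was above group I in 20.5% and line 1.2 in 7.98%. The median log2 differences were 0.32 in line 1.2 and 0.81 in line 1.5 for glycolysis, and 0.12 and 0.91 for the other targets.

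The 5 genes of these lists above group I in both lines, against 6.16% of all tested genes, were Pgk1, Ldhb, Fam162a, Ndufa4l2 and Cxcl12. The glycolysis genes among them numbered 2 of 24, but 6 without line 1.1 and 1 without line 1.3. The other targets numbered 3 of 26, but 5 without line 1.4, so nothing is read from these counts. RefSeq gives a promoter for 4 of them, from 250 bases before to 50 bases after the start of transcription (build GRCm38.p6, which is not the build of the counts). The promoters are shown because both group II lines were above group I in these genes. The capitals mark each ACGTG or its reverse complement CACGT, a pair that overlaps where CACGTG occurs. Pgk1 lies at chrX:106186850-106187149 on the plus strand, Fam162a at chr16:36071512-36071811 on the minus strand, Cxcl12 at chr6:117168285-117168584 on the plus strand and Ldhb at chr6:142507908-142508207 on the minus strand.
Pgk1: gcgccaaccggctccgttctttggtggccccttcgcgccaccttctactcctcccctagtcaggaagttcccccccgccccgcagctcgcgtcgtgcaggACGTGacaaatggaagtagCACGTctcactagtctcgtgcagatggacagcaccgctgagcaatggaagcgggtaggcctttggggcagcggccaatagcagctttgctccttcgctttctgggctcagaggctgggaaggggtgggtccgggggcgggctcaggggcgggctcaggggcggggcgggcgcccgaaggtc
Fam162a: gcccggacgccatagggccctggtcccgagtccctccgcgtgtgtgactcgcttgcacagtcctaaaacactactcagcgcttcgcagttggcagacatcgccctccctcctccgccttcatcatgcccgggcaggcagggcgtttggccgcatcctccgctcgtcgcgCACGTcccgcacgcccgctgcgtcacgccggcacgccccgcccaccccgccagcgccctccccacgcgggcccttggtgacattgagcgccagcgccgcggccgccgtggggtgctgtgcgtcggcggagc
Cxcl12: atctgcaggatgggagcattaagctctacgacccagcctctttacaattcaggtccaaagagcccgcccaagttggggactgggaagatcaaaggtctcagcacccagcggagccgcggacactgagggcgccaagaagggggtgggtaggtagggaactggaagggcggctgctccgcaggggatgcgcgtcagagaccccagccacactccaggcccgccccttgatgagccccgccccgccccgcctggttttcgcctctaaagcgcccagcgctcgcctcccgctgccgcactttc
Ldhb: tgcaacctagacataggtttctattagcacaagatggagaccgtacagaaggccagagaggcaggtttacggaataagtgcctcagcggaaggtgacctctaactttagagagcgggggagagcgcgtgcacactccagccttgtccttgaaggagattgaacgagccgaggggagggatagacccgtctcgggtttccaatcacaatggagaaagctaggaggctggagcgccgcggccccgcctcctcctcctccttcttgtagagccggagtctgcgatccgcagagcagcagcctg

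Pgk1 held 2 matches, starting at -150 and -131 from the start of transcription, and Fam162a held 1, at -81. Cxcl12 and Ldhb held 0 in this window. A match was found in 11 of 23 promoters of the glycolysis list (47.8%), in 15 of 22 of the other HIF-1 targets (68.2%) and in 4 of 9 of the HIF subunits and regulators (44.4%). Of all 27025 promoters of the same length 19.7% held it, and of the 12229 whose genes were tested here 25.1%.

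Pgk1, phosphoglycerate kinase, stood at 898, 471.5 and 757 CPM in group I, at 1032 in line 1.2 and at 1678 in line 1.5. Gpi1, the glucose-6-phosphate isomerase, was at 1090, 673 and 1012 CPM against 1202 and 2251, and Ldha, a lactate dehydrogenase subunit, at 1334, 772 and 1083 against 1467 and 1908. Line 1.3 was the lowest of the 5 lines in all 3 genes. Gapdh stood between 2682 and 3295 CPM and Pkm between 2781 and 4232, and neither was beyond group I in either line. Ldhb stood at 122.5, 94.7 and 82.2 CPM against 185 in both group II lines.

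Fam162a, a mitochondrial protein of hypoxic cells, stood at 31.7, 25.4 and 33.8 CPM against 56.5 and 112.5, and Ndufa4l2, which lowers complex I activity in hypoxia, at 16.6, 4.01 and 18.6 against 24.3 and 63.6. Bnip3, a mitophagy receptor, stood at 162.5, 65.0 and 156 CPM against 164 and 322, and P4ha1, a collagen prolyl hydroxylase, at 40.4, 32.0 and 50.0 against 55.8 and 138. Line 1.2 stood between group I and line 1.5 in Fam162a, Ndufa4l2 and P4ha1, and line 1.3 was again the lowest. Among the subunits, Hif1a stood between 93.9 and 140 CPM and Arnt between 104 and 163, beyond group I in neither line. Epas1, which encodes HIF-2α, stood at 189, 309 and 248 CPM against 177 and 67.8.

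**Figure D3:**
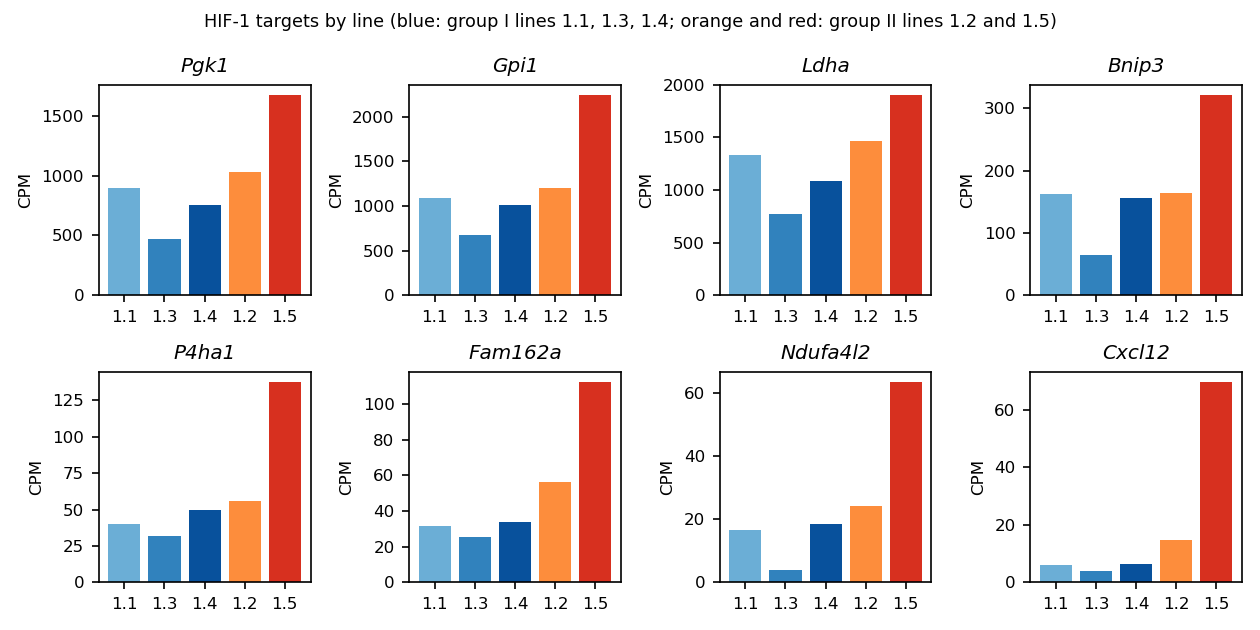
CPM of 8 HIF-1 targets in each line of embryo 1 (bars from 0, 1 library per line, no error bar). Blue bars are group I lines 1.1, 1.3 and 1.4, the orange bar line 1.2 and the red bar line 1.5. Line 1.5 is the highest for every gene shown, and line 1.3 the lowest.

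The mitochondrial genome followed line 1.5 as well. Its genes together took 3.81%, 4.03% and 4.01% of the counts in group I, 3.30% in line 1.2 and 2.10% in line 1.5. Line 1.5 was below group I in 12 of its 13 protein genes and line 1.2 in 2, mt-Co2 and mt-Atp6. Without line 1.4, 1 of the 13 was below group I in both lines. The cytochrome b gene mt-Cytb stood at 4498, 5029 and 4652 CPM in group I against 3452 and 1372, and the complex I gene mt-Nd1 at 5575, 5751 and 5012 against 4148 and 2181. By contrast mt-Nd6, on the other strand, stood between 243 and 291 CPM in the 5 lines. Of 29 tested nuclear genes of the respiratory chain, line 1.5 was below group I in 4 and line 1.2 in 0. Over all tested genes line 1.5 was below it in 15.5% and line 1.2 in 6.98%, so the nuclear genes were not below more often.

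Imprinted genes, which are expressed from the copy of a single parent, varied widely within group I. Of 29 tested genes 7 were above group I in both lines and 0 below in both, against 6.16% and 3.97% of all tested genes. H19, a maternally expressed RNA, stood at 22.6, 71.9 and 17.1 CPM in group I against 87.3 and 150, and the paternally expressed Mest at 60.3, 138 and 9.47 against 194 and 155. Sgce stood at 5.21, 6.39 and 1.36 CPM against 11.8 and 22.99. The retroelement-derived Peg10, its neighbour, stood at 214, 590 and 24.7 CPM against 430 and 708, so line 1.2 lay within group I. Group I overlapped neither group II line in H19, Mest and Sgce but covered a wide range, and Grb10 ranged from 27.8 to 336 CPM within group I, with both group II lines inside. Without line 1.3, 14 of the 29 genes were above group I in both lines.

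Trophectoderm genes were above group I in both lines in 5 of 16 tested, namely the keratins Krt7, Krt8, Krt18 and Krt19 and the receptor Fgfr2. Over all tested genes both lines were above group I in 6.16%. Krt8 stood at 5.15, 13.3 and 6.69 CPM in group I against 19.5 and 15.4, and Fgfr2 at 7.98, 16.1 and 10.97 against 26.8 and 71.4. Plac1 and Hand1 were above group I in line 1.2 alone. The factor Tfap2c was above it in line 1.5 alone, at 128, 67.7 and 55.2 CPM against 104 and 145. Gata3 and Tead4 were above group I in neither line. Eomes was below it in line 1.5, at 8.91, 11.8 and 14.4 CPM against 9.26 and 6.52. Line 1.5 was below group I in 3 of the 16 genes and line 1.2 in 0. With a line left out, the median log2 fold change of the list ranged from -0.38 to 0.05. Cdx2 and Elf5 were too low to be tested.

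Counts above group I were also higher in line 1.5 than in line 1.2 for sterol and fatty acid genes and antigen presentation, as they were over all tested genes (20.5% against 7.98%). Line 1.5 was above group I in 11 of 24 genes of cholesterol synthesis and line 1.2 in 1. For fatty acid synthesis the counts were 5 of 12 in line 1.5 and 0 in line 1.2. For MHC class I and antigen presentation they were 8 of 14 in line 1.5 and 1 in line 1.2, and H2-K1, a class I heavy chain, stood at 38.9, 25.6 and 34.3 CPM against 37.2 and 66.0.

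Ligands and targets of Nodal and TGFβ, whose receptors the medium blocks, went both ways. Of 17 tested, 2 were above and 3 below group I in both lines. Over all tested genes both lines were above it in 6.16% and below it in 3.97%. Nodal itself stood at 35.7, 106 and 135 CPM in group I against 46.3 in line 1.2 and 30.1 in line 1.5, and its inhibitor Lefty1 at 1.62, 3.41 and 7.77 against 4.98 and 15.04. Of 16 targets of MEK-ERK signalling, 1 was above and 1 below in both lines, close to the shares over all tested genes. The gene above was Dusp4, a phosphatase, at 14.1, 20.9 and 12.2 CPM against 27.3 and 42.2. The gene below was Etv4, an ETS factor, at 78.8, 72.6 and 45.4 against 40.5 and 6.92. Amino acid supply under the factor ATF4 had 1 of 32 genes above group I in both lines and 0 below, and ribosomal proteins had 0 of 41 in both lines on either side. The ATF4 motif TGATGNAA was in 9 of 27 promoters of the ATF4 list (33.3%). It was in 4.06% of all promoters and in 2.14% of those whose genes were tested here.

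**Figure D4:**
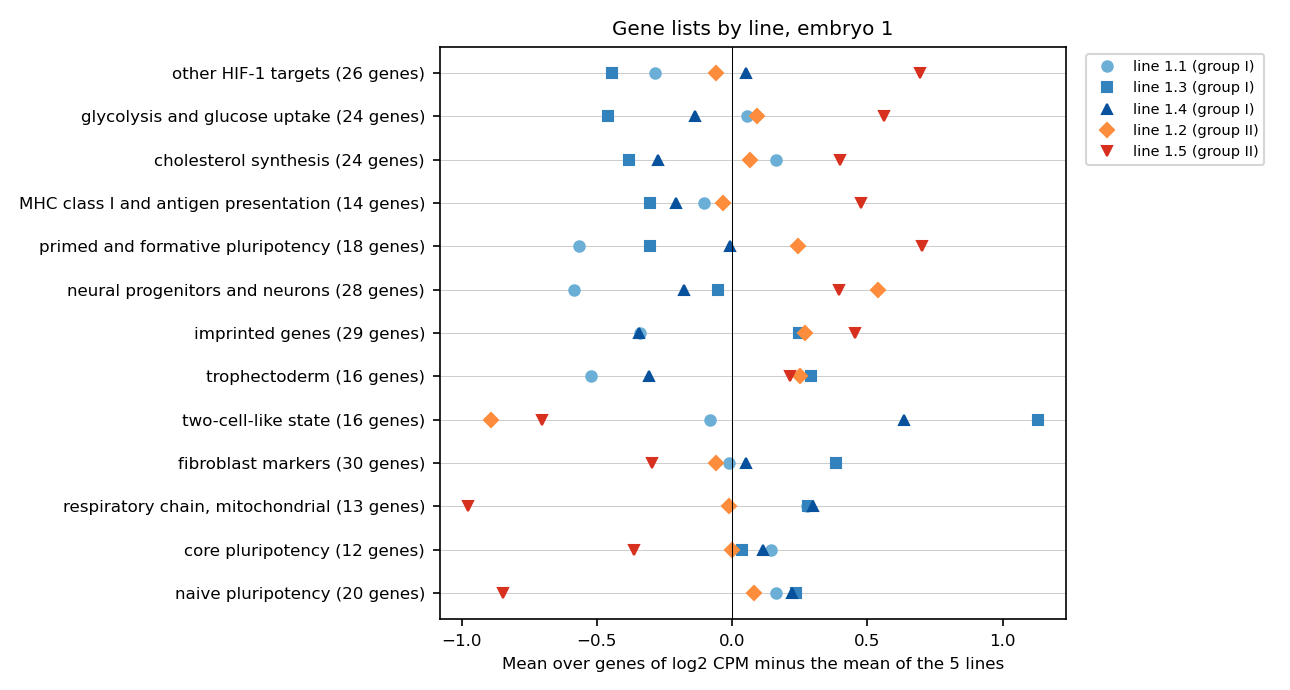
Median over the tested genes of each list of log2 CPM minus the mean of the 5 lines, for the 5 lines of embryo 1. The axis label names a mean over genes, but medians are plotted. Blue markers are group I lines, orange diamonds line 1.2 and red triangles line 1.5. Line 1.5 stands alone for naive genes (-0.85) and mitochondrial genes (-0.98), and both group II lines stand together for the 2-cell-like (-0.89 and -0.70) and neural lists (0.54 and 0.40).

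Processed pseudogenes stood lower in both group II lines. Of 1487 tested, 259 (17.4%) were below group I in both lines and 17 (1.14%) above it, against 2.58% and 6.56% of the 14767 protein coding genes. They took 0.841%, 0.797% and 0.833% of the counts in group I, 0.738% in line 1.2 and 0.715% in line 1.5. Reads that fit both a gene and its copies are divided by the counting, so these values are uncertain.

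Fibroblast markers were lowest in line 1.5. Col1a1, Col1a2, Col3a1, Lum and Dcn, the fibroblast markers, together took 0.0536%, 0.0738% and 0.0480% of the counts in group I, 0.0450% in line 1.2 and 0.0190% in line 1.5. Of the list of 30 fibroblast genes line 1.5 was below group I in 14 and above it in 4. Line 1.2 was below in 5 and above in 1. Over all tested genes line 1.5 was below in 15.5% and above in 20.5%, and line 1.2 in 6.98% and 7.98%. No defining fibroblast marker was at 0. The feeder cells were human, and how much of this signal came from them was not tested, nor was its part in the differences above. Gata6, Gata4, Sox17 and Sox7, which mark primitive endoderm, reached at most 5.85 CPM in any line, and the mesoderm genes T and Mixl1 at most 0.498, with group II beyond group I in none of them except Mixl1 in line 1.5.

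The median level of some chromosomes differed between lines. On chromosome 8 the median log2 difference of line 1.2 from the mean of the other 4 lines was 0.18 over 719 genes, and 84.4% of these genes were higher in line 1.2, against 48.6% on the other autosomes. Chromosome 8 held 95 of the 1446 genes above group I in line 1.2 (6.57%) and 5.03% of the tested genes. The genes named above that lie on it include Gnao1, Sox1 and Zfp42. On chromosome 6 the medians were 0.14 in line 1.1, 0.09 in line 1.2, 0.16 in line 1.5, -0.09 in line 1.3 and -0.17 in line 1.4. The genes named above that lie on chromosome 6 include Mest, Sgce, Peg10, Nanog, Cxcl12, Ccnd2, Emp1, Gdf3 and Ldhb. On chromosome X the median of line 1.5 was 0.16. The part of these shifts in the values of single genes was not tested.

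Line 1.4 had few counts from the Y chromosome. Its counts were 76 for Ddx3y, 62 for Eif2s3y, 16 for Kdm5d and 28 for Uty, whereas the other 4 lines had between 2206 and 2682, 2234 and 3380, 398 and 735, and 629 and 1076. Xist, which coats and silences the inactive X chromosome of female cells, had counts of 46, 48 and 65 in group I, 95 in line 1.2 and 255 in line 1.5.

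Whether the group difference of embryo 1 departed from that of the other embryos was tested in all 19 lines, as the difference of embryo 1 minus the mean of those of embryos 2 and 3. The groups of all 3 embryos were chosen together on corrected values, so this test compares the embryos and gives no support to the groups. Of 20333 genes edgeR called 2 (0.00984%) with a higher and 0 (0%) with a lower difference in embryo 1, with 921 and 916 at an unadjusted p under 0.05. DESeq2 called 35 and 64.

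Both called genes had higher levels in group I within embryo 1 and lower levels in group I within embryos 2 and 3. Ier3, an immediate early gene that follows MEK-ERK signalling, stood at 36.0, 33.4 and 41.1 CPM in group I of embryo 1 against 14.6 and 28.6 in lines 1.2 and 1.5. In embryo 2 its group I lines stood between 4.83 and 7.74 CPM and its group II lines between 16.8 and 30.9. In embryo 3 they stood between 4.70 and 9.05 and between 12.7 and 18. The groups overlapped in none of the 3 embryos. The log2 fold change of group I over group II was 0.77 in embryo 1, -1.82 in embryo 2 and -1.18 in embryo 3, and the difference was 2.28 (SE 0.358, edgeR adjusted p = 0.0486).

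Nlrp3, the sensor of an inflammasome, stood at 12.8, 10.4 and 10.8 CPM in group I of embryo 1 against 8.12 and 5.82 in group II. In embryos 2 and 3 group I stood between 0.154 and 0.492 CPM and group II between 0.555 and 1.45. Every line of embryo 1 was thus above every line of the other embryos. The log2 fold changes were 0.70, -2.06 and -1.71 in embryos 1, 2 and 3, with a difference of 2.58 (SE 0.407, edgeR adjusted p = 0.0486). Neither call was kept with RLE factors (adjusted p = 0.0518 for both), without line 2.2 (0.0774 for both) or without line 1.1, 1.3, 1.4 or 1.5, where the adjusted p of edgeR ranged from 0.0586 to 0.202 for Ier3 and from 0.0956 to 0.671 for Nlrp3. Without line 1.2 both were called, among 110 genes higher and 127 lower, but group II of embryo 1 was then line 1.5 alone, assumed to vary like the other groups, as line 1.2 was without line 1.5.

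Of the genes named above, Sox11 was among the closest to a call on the lower side, with log2 fold changes of -1.36, -0.21 and -0.55 in embryos 1, 2 and 3 (edgeR adjusted p = 0.166). Others with a small p, none called, were Pde4a, Gm11725 and Gys1 with a higher and Sntg1 and Tifa with a lower difference in embryo 1. Their log2 differences were 1.09, 3.36, 0.83, -3.80 and -7.03 (edgeR adjusted p between 0.1065 and 0.170). Gm11725, Sntg1 and Tifa reached at most 0.61, 0.66 and 0.39 CPM in any line, so their large differences rest on few counts. Tifa was at 0 in every group I line of embryo 1. For the glycolysis list the medians in embryos 1, 2 and 3 were -0.51, -0.69 and -0.72, for the other HIF-1 targets -0.47, -1.37 and -1.30, for naive genes 0.60, 0.35 and 0.26, and for the neural list -1.27, -0.0040 and -0.605, with 0 genes of each called in the test between embryos.

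**Figure D5:**
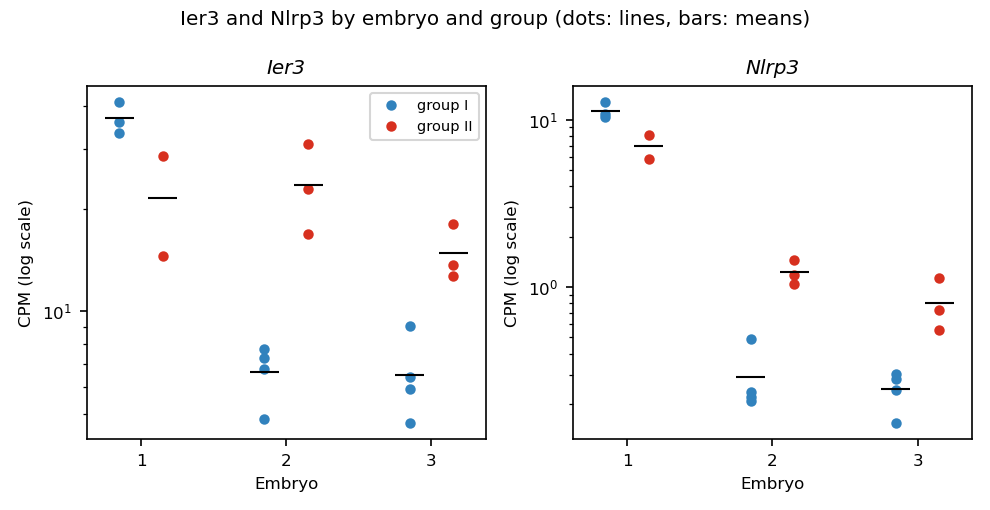
CPM of Ier3 (left) and Nlrp3 (right) on a log scale for the 19 lines by embryo. Blue dots are group I lines, red dots group II lines and black bars the group means. Blue lies above red in embryo 1 and below it in embryos 2 and 3.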

How the data were processed

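Poly-A RNA of 19 mESCs lines was sequenced by the authors with stranded libraries, aligned with STAR to GRCm39 and counted per gene with RSEM 1.3.0 on GENCODE M27. The deposited table holds these expected counts as whole numbers for 55416 genes, of which 19924 are at 0 in every line. Total counts per line ranged from 33846569 to 48740941. For coordinates, 54749 of the IDs were matched to a newer GENCODE release on GRCm39.

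The labels name the embryo of each line, and the groups are those of the paper. The embryo 1 lines, the gene lists and the comparisons were chosen with earlier results of these data known. Lists were written from general knowledge. Where a symbol had 2 IDs, the one with the higher level was kept.

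After a filter on low counts (filterByExpr), TMM factors were computed and genes were tested by quasi-likelihood in edgeR 4.0.16 (R 4.3.3), and p-values were adjusted after Benjamini and Hochberg. P-values measure the spread between lines, each a separate culture with 1 library. Log2 CPM used a prior count of 2. The scripts were tested on simulated data. Within embryo 1, 18129 genes were tested, and 20333 over 19 lines with 6 embryo-by-group means. Alternatives were DESeq2 1.42.0, RLE factors, other filters and thresholds, protein coding genes alone, a block for the line number and leaving out lines. Leaving out group I lines for the counts of genes beyond group I was added after the data were seen.

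The named genes were taken from the 10 highest and 10 lowest log2 fold changes among protein coding genes called or, where fewer were called, beyond group I in both lines, with a mean reaching 5 CPM and no overlap of the groups, the 5 largest differences between lines 1.5 and 1.2 in each direction, the smallest p between embryos, the core genes, the Y-linked genes and the most abundant list members. Other list members were named after their values were seen. Some genes that this rule or the lists hold are not reported here, and they were also left out of the search for single lines that stood apart.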

Additional observations from a re-analysis of the deposited data

Results flagged for a closer look

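Among the 5 lines of embryo 1, a single line stood apart from the nearest other line, by Dixon's criterion for 5 values, in 5 of 43 depths, shares and list levels. Chance gives such a line in about 1 of 20 groups, and the lists were chosen with earlier results known. List levels are the median over genes of log2 CPM relative to the mean of the 5 lines.

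Line 1.5 had the lowest level of the core pluripotency list, at -0.36 against -0.0016 in line 1.2 as the nearest, of the naive list, at -0.85 against 0.08, and of the mitochondrial genes, at -0.98 against -0.01. Line 1.2 was the nearest line in each of these 3 lists. The gap of the core list, 0.713 of the range of the 5 lines, only just passed the limit of 0.71. Line 1.5 also had the highest CPM of Kif1a, at 75.4 against 14.1, of Cxcl12, at 69.7 against 14.8, and of Cacna1b, at 33.3 against 7.36. These 3 genes were named for the gap between lines 1.5 and 1.2, so that line 1.5 stands apart in them follows from their choice and no rate of chance applies.

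Line 1.4 had the lowest level of the 4 Y-linked genes, at -3.90 against 0.88. Line 1.1 had the fewest genes detected, 24180 when rounded, against 25360, and also the lowest total count.

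The group difference of Ier3 and Nlrp3 in embryo 1 departed from that in embryos 2 and 3 by 2.28 and 2.58 on the log2 scale in the test of the difference between embryos, with edgeR adjusted p = 0.0486 for both.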

How the results depend on the processing

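The calls of edgeR between the groups depended on the setting. Against 1 gene higher and 0 lower in group I, DESeq2 gave 105 and 455, no filter 73 and 421, and the fit of all 19 lines 140 and 598. The number higher was 0 with at least 1 CPM in 2 or more lines and with protein coding genes alone. Leaving out a line gave 0 to 47 higher and 0 to 111 lower, the highest counts without line 1.2, where line 1.5 was group II alone and was assumed to vary like group I. For the difference between embryos, against 2 higher and 0 lower, DESeq2 gave 35 and 64 and no filter 15 and 32. The number higher was 0 with RLE factors and 0 without line 2.2, and leaving out a line of embryo 1 gave 0 to 110 higher and 0 to 127 lower. The log2 difference of Ier3 was 2.27 with RLE factors, 2.15 without line 2.2 and 1.87 to 2.85 with a line of embryo 1 left out, and that of Nlrp3 was 2.58, 2.64 and 2.37 to 2.84.

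No paired analysis was possible within embryo 1 because each line number occurs once there. Across embryos the line number as a replicate block gave 0 genes higher and 0 lower, with 2.56 for Ier3 and 2.76 for Nlrp3 (edgeR adjusted p = 0.829 for both). Only 3 of 17 same-numbered pairs of lines had deviations that correlated above 0.1, so the lines share a number alone.

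With a mean of at least 5 CPM, line 1.2 was above group I in 349 genes and below in 147, line 1.5 in 1463 and 1197, and both in 303 and 109. With a fold of 2 these were 663 and 497, 2012 and 1289, and 498 and 213. Without line 1.1 the genes below were 1904 in line 1.2 and 1151 in both. With a group I line left out, line 1.2 was above group I in 1707 to 1769 genes and below in 1374 to 1904, line 1.5 in 3743 to 3983 and 2953 to 3078, and both in 1354 to 1363 and 751 to 1151.

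With a line left out, the median log2 fold change ranged from 0.094 to 0.485 for the core list, from 0.15 to 1.09 for naive genes, from -0.84 to -0.11 for other HIF-1 targets and from 0.33 to 1.32 for mitochondrial genes. Of 35 lists, 24 kept their sign in every such fit. With a mean of at least 10 CPM, the distance from group I was 0.26 for line 1.2 and 0.56 for line 1.5, and the group I lines 1.1, 1.3 and 1.4 lay at 0.41, 0.27 and 0.32 from the others. Of the log2 fold changes of named genes under other settings, 375 moved by less than the spread within groups and 33 by more. Changes of sign among them were not counted. Genes near 0 counts have wide counting errors, and 1 library per line leaves the technical spread unmeasured.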
